A study of Mus musculus with 8 samples.

Results

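The 10 genes described here encode the core of the MHC class I antigen presentation pathway: the heavy chains H2-K1, H2-D1 and H2-T23, the light chain B2m, the peptide transporter subunits Tap1 and Tap2, the peptide-loading and editing factors Tapbp and Tapbpl, the trimming enzyme Erap1 and the transcriptional activator Nlrc5. They were chosen by name for their place in the pathway, and all 10 were found among the 16538 genes of the expression table. Transcripts were measured by RNA-seq in DN3 thymocytes, the CD4- CD8- CD44- CD25+ stage at which β-selection begins, from C57BL/6 mice of 6 weeks. The 4 control libraries carried loxP-flanked Sel1l on both alleles without Cre (Sel1l-f/f), and the 4 Sel1l CKO libraries carried the same alleles with a Cre transgene under the human CD2 promoter (Sel1l-f/f hCD2cre+). SEL1L is the adaptor of the ubiquitin ligase HRD1 in endoplasmic reticulum (ER)-associated degradation, so the comparison asks what loss of this degradation route does to transcripts of a pathway whose proteins are folded and assembled in the ER. No control carried Cre with intact Sel1l, so the transgene and the deletion cannot be told apart, and the human CD2 promoter also drives Cre in other lymphoid cells.

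In this pathway, peptides cut by the proteasome are pumped into the ER by the TAP1-TAP2 transporter, trimmed by ERAP1 and bound by a newly made heavy chain paired with β2-microglobulin. Tapasin (Tapbp) bridges that complex to the transporter, calreticulin and PDIA3 take part in the same loading complex, and calnexin and BiP act on the heavy chain before it. Heavy chains that fail to assemble are known clients of ER-associated degradation, and interferons, NF-κB and NLRC5 are known to drive transcription of the genes.

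Between 32900253 and 50401359 reads were counted per library. Each member was covered by at least 1212 reads in every library, so counting error was small beside the spread between libraries. Sel1l fell from 1.67 ± 0.114 RPKM in control to 1.09 ± 0.222 in Sel1l CKO libraries (mean ± SD, n = 4 each), with a log2 fold change of -0.59 and an adjusted p of 0.0327 (limma), and the genotypes did not overlap. The study reported efficient depletion with this Cre, from quantitative PCR of Sel1l and a western blot of SEL1L. RPKM, which covers the whole gene, is a different measure. The Sel1l call was not stable here: it passed in 11 of 21 alternatives and in 2 of the 8 fits that left out 1 library (adjusted p from 0.0206 to 0.0984 by limma). Its log2 fold change was -0.89 among replicates 1 and 2 of both genotypes and -0.30 among replicates 3 and 4. Sel1l CKO replicates 1 and 2 held less Sel1l RNA (0.917 and 0.876 RPKM) than Sel1l CKO replicates 3 and 4 (1.32 and 1.23 RPKM). They also received the lowest limma array weights of the 8 libraries (0.337 and 0.291), while Sel1l CKO replicates 3 and 4 received 2.75 and 1.52. These weights come from how closely a library follows its genotype's fitted values, not from a separate measure of quality. The labels name no batch. Differences are therefore also given within each of these library pairs. The split was chosen from these Sel1l CKO values, and control libraries were assigned to a pair by replicate number alone. All 12 DN3 marker genes had a mean of at least 1 RPKM, and their summed level was 456 to 487 RPKM in control and 398 to 430 RPKM in Sel1l CKO libraries. Of 9 genes that mark class II antigen-presenting cells, which express class I genes strongly, 7 were in the table and summed to 1.45 to 3.42 RPKM in control and 1.68 to 3.62 RPKM in Sel1l CKO libraries. Markers of NK or innate lymphoid cells summed to 62.9 to 89.5 RPKM in control and 48.0 to 64.2 RPKM in Sel1l CKO libraries, and those of B cells to 8.22 to 10.2 and 5.31 to 8.22 RPKM. Of the NK genes only Nkg7, Gzma and Id2 reached a mean of 1 RPKM, and of the B cell genes only Cd79b. Markers of double-positive or single-positive thymocytes summed to 5.94 to 38.3 RPKM in control and 6.06 to 10.5 RPKM in Sel1l CKO libraries. Klf2 of that list measured 2.07, 1.28, 16.2 and 32.7 RPKM in control replicates 1 to 4. Markers of γδ T cells, with values for 3 of 8 genes, summed to 2.13 to 2.47 and 1.84 to 2.54 RPKM. Markers of macrophages or other myeloid cells summed to 3.53 to 6.44 RPKM in control libraries and to at most 4.07 RPKM in Sel1l CKO libraries. Those of thymic epithelium summed to 8.10 to 9.44 and 6.53 to 6.64 RPKM, which did not overlap, and Epcam of that list fell (log2 fold change -0.95, adjusted p of 0.00273 by limma). Only 2 of its 8 genes, Epcam and Ctsl, reached a mean of 1 RPKM, and Foxn1 did not exceed 0.00366 RPKM. Ctsl measured 4.48 ± 0.260 RPKM in control and 4.43 ± 0.184 in Sel1l CKO libraries, so the separation of the sums rests on Epcam. The study's methods name antibodies to B220, CD49b, Gr-1, CD11b, Ter119 and CD11c as the lineage exclusion, which would remove B cells, most NK cells and myeloid cells from the sort. The part of these cells in the class I values was not tested, and in sorted bulk RNA fewer cells of a type and less RNA per cell cannot be told apart.

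The promoters show which of the members share regulatory letters. The RefSeq promoter table used here (GRCm38.p6) held 7 of the 10 genes. Tap2, Tapbpl and Nlrc5 are the others. For each of the 7, the 250 bases upstream of its most downstream listed start were read. The windows of H2-D1, Tapbp and Erap1 lie wholly inside the gene spans given below, and most of that of H2-T23 does too. That of Tapbp begins at 33919228, in a gene that begins at 33915899. The letters therefore describe a single start of each gene. The 2 classical heavy chains, the non-classical heavy chain H2-T23 and B2m are printed here 5′ to 3′ along the gene, because these are the subunits of the assembled molecule. Capitals mark the longest run that the H2-K1 and H2-D1 windows have in common and, in all 4, the X2 core TGACG and the Y box CCAAT on either strand.
H2-K1 (chr17:34000334-34000583, minus strand): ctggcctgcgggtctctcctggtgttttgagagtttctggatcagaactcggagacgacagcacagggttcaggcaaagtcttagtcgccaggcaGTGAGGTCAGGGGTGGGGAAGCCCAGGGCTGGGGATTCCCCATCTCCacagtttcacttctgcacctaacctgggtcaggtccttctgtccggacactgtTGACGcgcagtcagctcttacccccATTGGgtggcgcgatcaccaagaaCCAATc
H2-D1 (chr17:35262844-35263093, plus strand): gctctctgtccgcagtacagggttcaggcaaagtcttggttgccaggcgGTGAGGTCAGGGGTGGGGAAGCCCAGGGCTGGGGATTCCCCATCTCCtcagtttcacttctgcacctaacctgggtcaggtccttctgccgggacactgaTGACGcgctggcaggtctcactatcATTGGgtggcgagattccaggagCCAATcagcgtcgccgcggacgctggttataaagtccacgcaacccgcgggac
H2-T23 (chr17:36032702-36032951, minus strand): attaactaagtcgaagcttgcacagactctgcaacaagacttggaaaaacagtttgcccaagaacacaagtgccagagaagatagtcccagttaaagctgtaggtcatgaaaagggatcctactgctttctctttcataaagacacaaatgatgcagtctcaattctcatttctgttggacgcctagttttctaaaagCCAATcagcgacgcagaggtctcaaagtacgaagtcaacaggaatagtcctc
B2m (chr2:122147437-122147686, plus strand): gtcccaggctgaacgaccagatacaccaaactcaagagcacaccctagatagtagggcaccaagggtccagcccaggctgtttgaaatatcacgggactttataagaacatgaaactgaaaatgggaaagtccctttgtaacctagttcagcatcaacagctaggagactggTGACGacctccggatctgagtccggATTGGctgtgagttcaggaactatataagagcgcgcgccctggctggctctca

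The run common to both classical heavy chains was 47 bases long. It began 155 bases upstream of the H2-K1 start used here and 201 bases upstream of that used for H2-D1. It was in 3 of the 32851 promoter windows of the same length, all of them windows of these 2 genes. The whole H2-K1 and H2-D1 windows were identical at 88.7% of 203 aligned bases, and in both the run was followed by the X2 core and then by 2 Y boxes. B2m held an X2 core and a Y box without the run, and H2-T23 held a Y box only.

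Of the windows not printed, that of Tap1 held an X2 core and a Y box, that of Tapbp 2 Y boxes, and that of Erap1 neither. Letters this short are common: the X2 core was in 4 of the 7 windows and in 17.8% of all windows, and the Y box in 6 of the 7 and in 33.8% of all. The 2 cores do not overlap each other, and a match is a description of the letters, not a bound site.

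Values are RPKM, deposited per kilobase of a gene length with introns included. That length was the annotated span except for H2-K1, Tapbp, Erap1 and Nlrc5, where it was solved from the values. For Nlrc5 it was 54510 bases, against a span of 92917. The level of different genes was compared after conversion to exon length, which merges all annotated exons of a gene. Exon length was 2938 bases for H2-K1 and 2579 for H2-D1, against longest protein-coding transcripts of 1619 and 2102. For B2m both were 860. An order on transcript length was not computed. On the scale of exon length B2m was the most abundant member in control DN3 cells at 898 ± 179 (mean ± SD, n = 4), followed by H2-D1 at 175 ± 37.5 and H2-K1 at 159 ± 26.7. The H2-D1 and H2-K1 ranges overlapped, at 124 to 211 and 121 to 179. Tap2 came next at 99.5 ± 1.85, then Tapbp at 43.4 ± 5.90. Tap1 at 30.9 ± 2.27 and H2-T23 at 30.03 ± 2.05 lay within each other's range. Tapbpl at 18.3 ± 1.49, Erap1 at 13.4 ± 0.599 and Nlrc5 at 4.89 ± 1.01 formed the low end, and their ranges did not overlap. On the deposited scale B2m was also first, at 143 RPKM, but much closer to H2-K1 at 108 RPKM. There H2-K1 stood above H2-D1, and H2-T23 above Tap1 and Tapbp, which shows how far an order of levels rests on the length used.

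None of the 9 members that could be tested passed an adjusted p of 0.05 (limma on log2 of RPKM + 0.1, with a floor of 1 on a gene's mean RPKM), while 344 of 6512 genes did (5.28%), 278 of them higher in Sel1l CKO (4.27%) and 66 lower (1.01%). limma voom on recovered reads called 1 of them, Erap1. At an unadjusted p under 0.05, 5 of the 9 passed, against 20.8% of all genes tested. H2-K1, H2-D1 and Tap1 were on the higher side, and Tapbp and Erap1 on the lower side. The genotypes did not overlap for 3 of the 9, with H2-K1 higher and Tapbp and Erap1 lower, against 14.7% of all genes (9.15% higher and 5.59% lower). The median log2 fold change of the 9 was -0.05, and that of all genes tested was 0.01. With 4 libraries a genotype, no exact permutation p can be below 0.0286, and the labels do not say whether the libraries came from separate mice, so p-values measure the spread between these libraries.

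**Figure D1:**
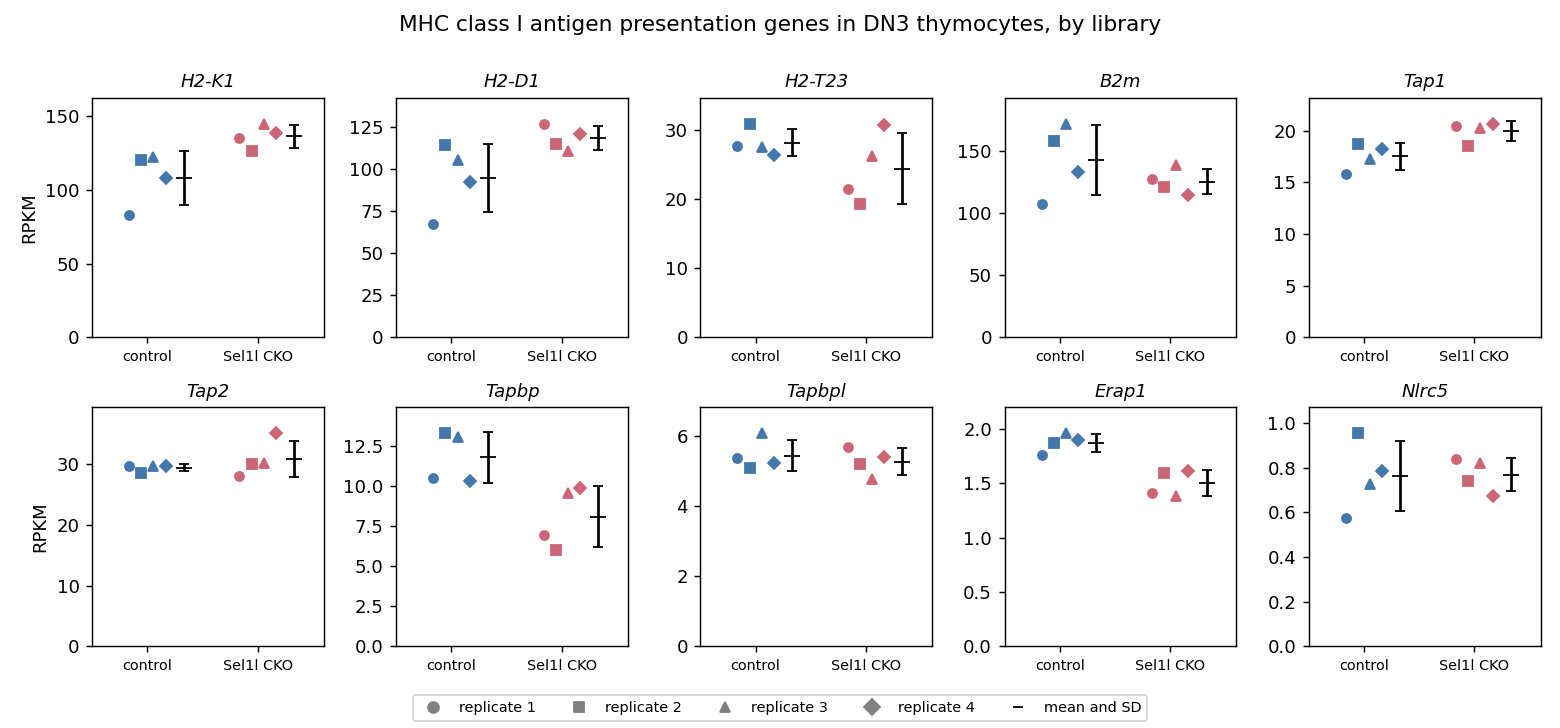
RPKM (per gene length with introns, vertical axes from 0) of the 10 genes in the 4 control and 4 Sel1l CKO libraries, one point per library with the mean and SD beside them. H2-K1 lies higher, and Tapbp and Erap1 lower, in all Sel1l CKO libraries than in any control library, and the other 7 genes overlap.

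H2-K1 (ENSMUSG00000061232.16, GRCm38 chromosome 17, 33996017 to 34000347, minus strand) encodes the classical heavy chain K. In the order of replicates 1 to 4, control libraries measured 82.6, 120.3, 122 and 108 RPKM, and Sel1l CKO libraries measured 135, 127, 145 and 138 RPKM. The genotypes did not overlap, and control replicate 1 was well below the other controls. The log2 fold change was 0.35 (SE 0.12, 95% interval 0.08 to 0.62), with an adjusted p of 0.144 (limma) and an exact two-sided permutation p of 0.0286. Replicates 1 and 2 alone gave 0.39, replicates 3 and 4 alone gave 0.30, and leaving out control replicate 1 gave 0.22. Array weights, which are low for Sel1l CKO replicates 1 and 2, gave 0.44 with an adjusted p of 0.0438 (limma). That fit called 9.83% of all genes, and over the 22 alternatives the adjusted p of H2-K1 ran from 0.0438 to 0.253.

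H2-D1 (ENSMUSG00000073411.11, chromosome 17, 35262730 to 35267499, plus strand), the classical heavy chain D, measured 67.2, 114, 105 and 92.3 RPKM in control and 127, 115, 111 and 121 RPKM in Sel1l CKO libraries. The genotypes overlapped through control replicate 2, and control replicate 1 was again the lowest. The log2 fold change of 0.35 (SE 0.15, 95% interval 0.01 to 0.68) had an adjusted p of 0.222 (limma) and an exact permutation p of 0.0571. Within replicates 1 and 2 it was 0.46, within replicates 3 and 4 it was 0.23, and without control replicate 1 it was 0.19. No window of 150 bases in the H2-K1 transcript was found in another gene's transcripts, and 1.79% of those in the H2-D1 transcript were, with H2-Q1 as the partner, so reads of either classical gene had little chance of being split.

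H2-T23 (ENSMUSG00000067212.8, chromosome 17, 36029773 to 36032855, minus strand) encodes Qa-1, the heavy chain that shows leader peptides to the CD94-NKG2 receptors of NK cells. The control libraries lay close together at 27.7, 30.9, 27.6 and 26.4 RPKM. The Sel1l CKO libraries spread from 21.5 and 19.2 in replicates 1 and 2 to 26.2 and 30.7 RPKM in replicates 3 and 4. Its log2 fold change was -0.23 (SE 0.14, 95% interval -0.53 to 0.08, adjusted p of 0.379 by limma). It was -0.12 without Sel1l CKO replicate 2, -0.34 without Sel1l CKO replicate 4 and -0.067 with array weights. The sign differed between the library pairs, with -0.52 within replicates 1 and 2 (adjusted p of 0.0348 by limma, in a fit that called 8.98% of all genes) and 0.07 within replicates 3 and 4, and whether the 2 values differ was not tested. The antisense gene A930015D03Rik covers all 3083 bases of H2-T23, and whether reads were counted by strand is not given in the sources used here.

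B2m (ENSMUSG00000060802.8, chromosome 2, 122147686 to 122153083, plus strand) encodes β2-microglobulin, the light chain common to these heavy chains. Control libraries gave 108, 159, 172 and 133 RPKM, and Sel1l CKO libraries gave 127, 121, 139 and 115 RPKM. All 4 Sel1l CKO values lay within the control range. The log2 fold change was -0.17 (SE 0.14, 95% interval -0.48 to 0.14), with an adjusted p of 0.506 (limma). It ran from -0.30 without control replicate 1 to -0.073 without control replicate 3, and was -0.067 with array weights. B2m lies wholly within the span of Patl2 on the opposite strand, which reached no more than 0.0156 RPKM in any library.

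H2-K1 alone separated the genotypes, and so did its level relative to B2m, although neither gene passed the test. The log2 ratio of their RPKM values was, in replicate order, -0.38, -0.40, -0.50 and -0.30 for control and 0.08, 0.06, 0.06 and 0.27 for Sel1l CKO libraries. The mean was -0.40 ± 0.08 in control and 0.12 ± 0.10 in Sel1l CKO (SD, n = 4), a difference of 0.52 to which gene length does not contribute. The 4 control libraries differed among themselves in H2-K1 and in B2m by more than in this ratio, and control replicate 1, low for both genes, was not low for it. H2-D1 relative to H2-K1 differed between genotypes by less than the spread of the libraries, at -0.20 ± 0.09 in control and -0.21 ± 0.13 in Sel1l CKO, with overlapping libraries. H2-T23 relative to H2-K1 was -1.93 ± 0.25 in control and -2.50 ± 0.24 in Sel1l CKO, a difference of -0.57 with no overlap. The ratio separated within each library pair, though most in replicates 1 and 2, at -1.58 and -1.96 against -2.65 and -2.72. These ratios were chosen with the gene values known and are given as a description. Both that separated the genotypes contain H2-K1, and how many other gene pairs would separate them was not counted.

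**Figure D2:**
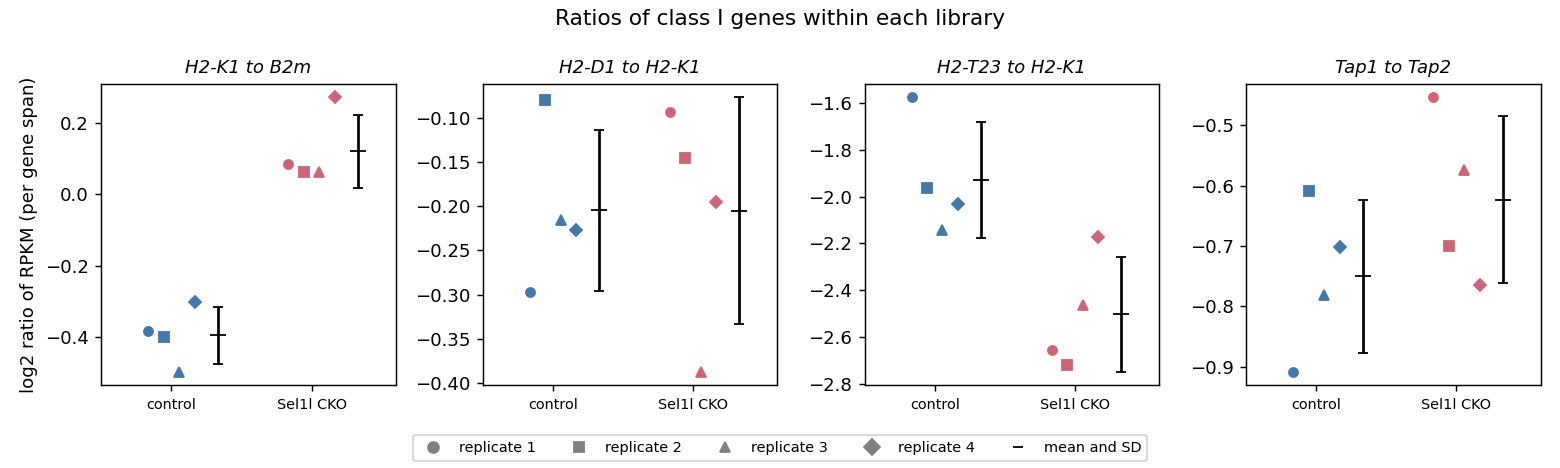
Log2 ratio of the RPKM values (per gene length with introns) of 4 gene pairs in each control and Sel1l CKO library, with the mean and SD beside the points. H2-K1 to B2m and H2-T23 to H2-K1 do not overlap between genotypes, with mean differences of 0.52 and -0.57, while H2-D1 to H2-K1 and Tap1 to Tap2 overlap.

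Tap1 (ENSMUSG00000037321.17, chromosome 17, 34187553 to 34197225, plus strand) and Tap2 (ENSMUSG00000024339.12, chromosome 17, 34203527 to 34216321, plus strand) encode the subunits of the peptide transporter. Tap1 measured 15.8, 18.7, 17.2 and 18.2 RPKM in control and 20.4, 18.5, 20.3 and 20.7 RPKM in Sel1l CKO libraries. Of the Sel1l CKO libraries, only replicate 2 lay below a control library, control replicate 2. Its log2 fold change was 0.19 (SE 0.07, 95% interval 0.03 to 0.35), with an adjusted p of 0.176 (limma), and it was 0.17 and 0.21 within the library pairs. Tap1 shares 212 bases at its start with Psmb9 on the opposite strand, an immunoproteasome subunit whose log2 fold change was 0.21 with an adjusted p of 0.192 (limma). Tap2 was at 29.7, 28.6, 29.6 and 29.7 RPKM in control and 27.97, 30.1, 30.2 and 35.1 RPKM in Sel1l CKO libraries. The control values lay close together and inside the wider Sel1l CKO range, and the log2 fold change was 0.06 (SE 0.07, 95% interval -0.11 to 0.23, adjusted p of 0.654 by limma). On the opposite strand, Gm15821 covers 3148 bases of Tap2 and Gm20496 covers 1923.

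Tapbp (ENSMUSG00000024308.15, chromosome 17, 33915899 to 33929292, plus strand) encodes tapasin, the bridge between the heavy chain and the transporter, and its log2 fold change was the furthest from 0 of the 9. Control libraries measured 10.5, 13.3, 13.0 and 10.3 RPKM and Sel1l CKO libraries 6.95, 5.97, 9.52 and 9.83 RPKM. No Sel1l CKO library reached the lowest control, but replicates 3 and 4 came close to it. The log2 fold change was -0.56 (SE 0.17, 95% interval -0.94 to -0.18), with an adjusted p of 0.102 (limma) and an exact permutation p of 0.0286. It was -0.86 within replicates 1 and 2 (adjusted p of 0.0283 by limma) and -0.26 within replicates 3 and 4. The adjusted p was under 0.05 in 2 of 22 alternatives and ran from 0.0283 to 0.360, and with array weights the log2 fold change was -0.30. Tapbp overlaps Zbtb22 on the same strand over 3422 bases. Zbtb22 measured 9.16 ± 0.119 RPKM in control and 9.15 ± 0.658 in Sel1l CKO libraries, so the difference was not shared by its neighbour. The antisense gene Gm19412, for which there are no values, covers 1207 bases of Tapbp. Of the 150-base windows of the Tapbp transcript, 8.73% were also in Gm19412 transcripts.

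Tapbpl (ENSMUSG00000038213.7, chromosome 6, 125223933 to 125231860, minus strand) encodes TAPBPR, a tapasin relative that edits peptides outside the loading complex. It measured 5.36, 5.10, 6.09 and 5.22 RPKM in control and 5.69, 5.19, 4.78 and 5.40 RPKM in Sel1l CKO libraries, which overlapped throughout. The log2 fold change was -0.05 (SE 0.08, 95% interval -0.23 to 0.13, adjusted p of 0.774 by limma). Tapbpl lies wholly opposite Vamp1, which measured 0.893 and 0.818 RPKM in Sel1l CKO replicates 1 and 2 against 1.82 to 2.28 RPKM in control libraries. Tapbpl in those 2 libraries lay within the range of its controls.

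Erap1 (ENSMUSG00000021583.7, chromosome 13, 74639568 to 74693201, plus strand) encodes the aminopeptidase that trims peptides in the ER. It measured 1.76, 1.87, 1.96 and 1.90 RPKM in control and 1.41, 1.59, 1.38 and 1.61 RPKM in Sel1l CKO libraries. All Sel1l CKO libraries lay below all control libraries, and the spread within each genotype was narrow. The log2 fold change was -0.30 (SE 0.08, 95% interval -0.48 to -0.13), with an adjusted p of 0.0562 (limma) and an exact permutation p of 0.0286. The library pairs gave -0.26 (replicates 1 and 2) and -0.35 (replicates 3 and 4). In the same order H2-K1 gave 0.39 and 0.30, and Tapbp gave -0.86 and -0.26. Whether the pairs differ for any of these genes was not tested. The adjusted p of Erap1 was under 0.05 in 4 of 21 alternatives and ran from 0.0187 to 0.193. Erap1 meets Cast on the opposite strand over 834 bases, and 12.5% of the 150-base windows of its transcript were also in Cast transcripts, which measured between 0.357 and 0.449 RPKM.

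Nlrc5 (ENSMUSG00000074151.13, chromosome 8, 94434356 to 94527272, plus strand), the transactivator of class I genes, had a mean below 1 RPKM and was not in the fit. It measured 0.576, 0.955, 0.727 and 0.787 RPKM in control and 0.838, 0.741, 0.821 and 0.676 RPKM in Sel1l CKO libraries, from 1212 to 2488 reads each. The Sel1l CKO libraries lay inside the control range, and the exact permutation p was 0.971.

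**Figure D3:**
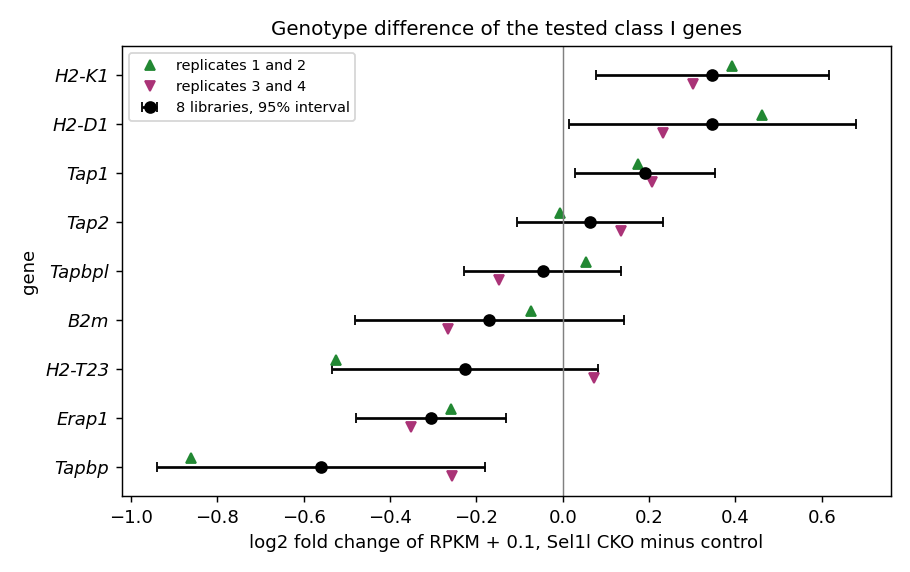
Log2 fold change of RPKM + 0.1 (horizontal axis, Sel1l CKO minus control) of the 9 tested genes with its 95% interval over 8 libraries, and the values within replicates 1 and 2 and within replicates 3 and 4. H2-K1, H2-D1 and Tap1 are above 0 in both library pairs and Tapbp and Erap1 below 0 in both, while H2-T23, Tap2 and Tapbpl take opposite signs in the 2 pairs.

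Across libraries the members did not vary as one block. After centring within genotype, over the same 8 libraries for each pair of genes, H2-K1 followed B2m (Pearson r = 0.92), H2-D1 (r = 0.90) and Tap1 (r = 0.77), and H2-D1 followed Nlrc5 (r = 0.78). H2-T23 followed Tapbp (r = 0.91) and not B2m (r = 0.05). Tap1 and Tap2 were nearly unrelated (r = 0.04). These correlations are descriptions over few libraries of unequal depth. Control replicate 1 was the lowest control library for 6 of the 10 members (H2-K1, H2-D1, B2m, Tap1, Erap1 and Nlrc5).

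The other class I heavy chain and class I-like genes, most of them in the H2 locus, were described next to the core genes. Of 18 listed genes outside the 10, 10 could be tested, 5 rose and none fell, against 4.27% of all genes for a rise, with a median log2 fold change of 0.78. H2-Q1 rose from 1.48 ± 0.268 to 2.77 ± 0.669 RPKM (log2 fold change 0.85, adjusted p of 0.0238 by limma). H2-M3, which presents N-formylated peptides, rose from 3.07 ± 0.525 to 5.64 ± 1.38 RPKM (0.84, adjusted p of 0.0272 by limma). H2-Q4 rose from 20.9 ± 3.61 to 34.6 ± 5.47 RPKM (0.73, adjusted p of 0.0216 by limma). The genotypes did not overlap for any of the 3. In these 2 library pairs, replicates 1 and 2 first, the log2 fold change was 1.20 and 0.51 for H2-Q1, 0.73 and 0.95 for H2-M3, and 0.97 and 0.48 for H2-Q4.

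The paired genes H2-T10 and H2-T22, whose products are ligands of some γδ T cell receptors, rose as well. H2-T10 measured 7.14, 8.33, 9.44 and 9.15 RPKM in control and 11.8, 15.2, 12.8 and 12.5 RPKM in Sel1l CKO libraries (0.61, adjusted p of 0.0110 by limma). H2-T22 measured 9.64, 13.4, 12.7 and 11.2 RPKM in control and 16.0, 16.1, 17.9 and 16.1 RPKM in Sel1l CKO libraries (0.50, adjusted p of 0.0230 by limma). In the same library pairs the values were 0.79 and 0.44 for H2-T10 and 0.49 and 0.51 for H2-T22. H2-T10 passed in all 8 fits that left out 1 library, and the other 4 each lost the call in at least 2 of the 8. H2-T22 passed in 6 of the 8, H2-Q1 and H2-Q4 in 5, and H2-M3 in 3. Control replicate 1 was the lowest control for each of these genes, and H2-Q1 and H2-M3 lost the call without it. The log2 fold changes without it were 0.73 for H2-Q1, 0.73 for H2-M3, 0.61 for H2-Q4, 0.53 for H2-T10 and 0.41 for H2-T22. H2-T10 shares 5590 bases of span with Gm7030 on the same strand, which did not exceed 0.171 RPKM. The shared 150-base windows of H2-T10 and H2-T22 were 1.13% and 0.931% of their transcripts. They were 4.64% for H2-Q1, mostly shared with H2-Q2, and 0 for H2-M3, so the split of reads is less certain for H2-Q1. For H2-Q4 they were 8.39%, all shared with Gm11131, an antisense gene that covers 676 of its bases. Whether that sharing affects H2-Q4 depends on whether reads were counted by strand.

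H2-Q6 had the furthest log2 fold change of the list without passing, at 1.39 (SE 0.40, adjusted p of 0.0851 by limma). It measured 0.756, 3.43, 2.21 and 2.13 RPKM in control and 6.96, 5.85, 4.97 and 3.36 RPKM in Sel1l CKO libraries. The near-copy H2-Q7, also a Qa-2 gene, gave 1.36 (SE 0.42, adjusted p of 0.110 by limma) with controls from 5.01 to 26.3 RPKM. Without control replicate 1, the lowest control for both, H2-Q6 gave 0.99 and H2-Q7 gave 0.94. The pair shares windows (5.99% of H2-Q6 and 9.68% of H2-Q7), so the split of reads between them is uncertain. Cd1d1, the class I-like gene that presents lipids, pointed the other way at -0.55 (adjusted p of 0.116 by limma), with control libraries from 11.8 to 17.0 and Sel1l CKO libraries from 6.91 to 11.4 RPKM.

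**Figure D4:**
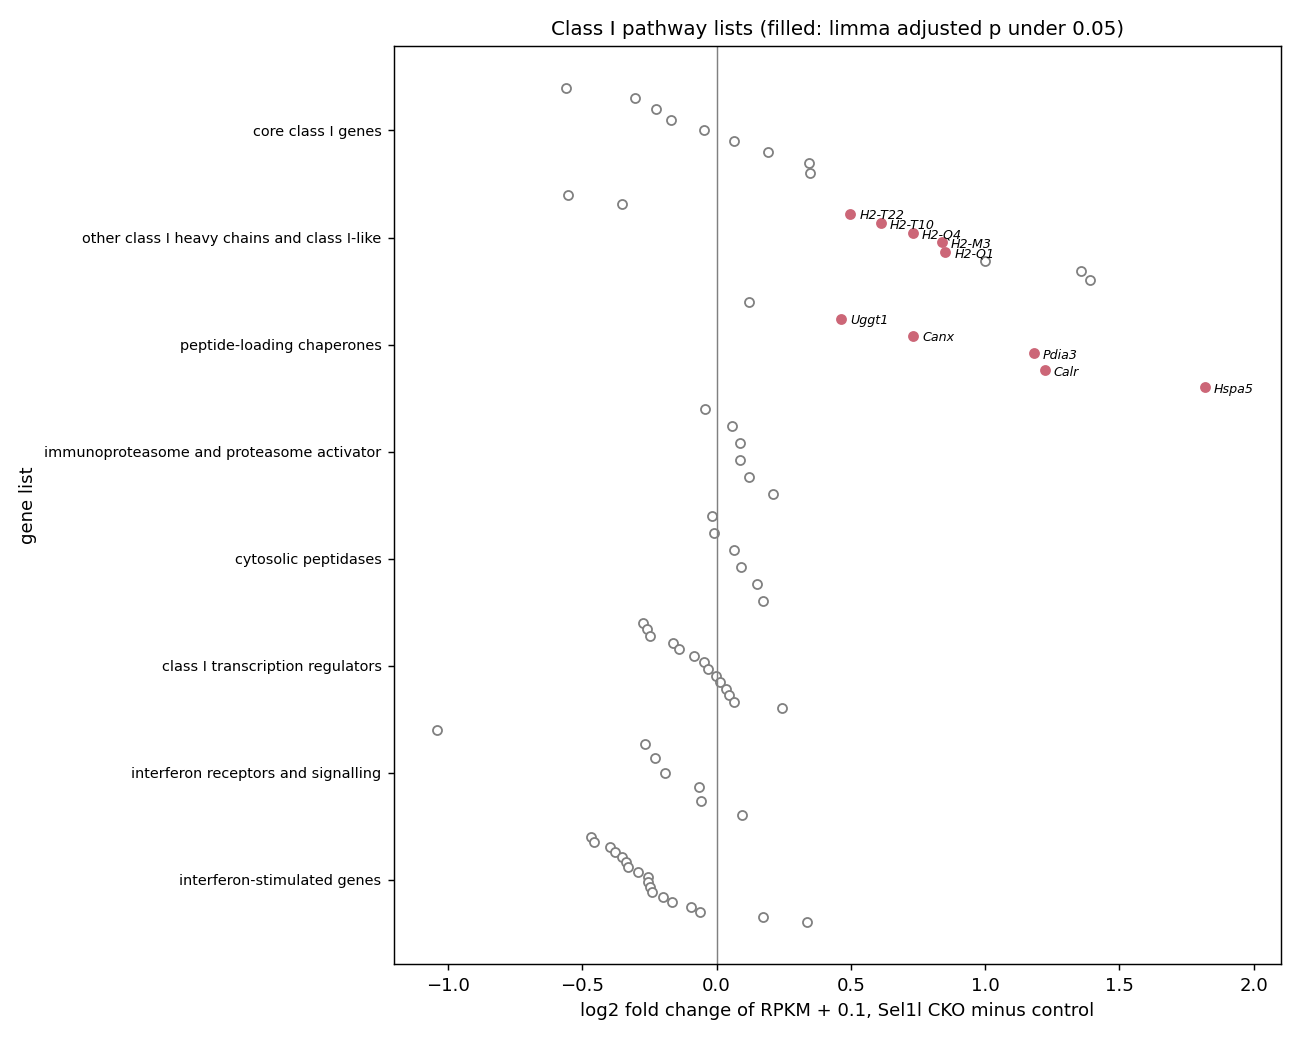
Log2 fold change of RPKM + 0.1 (horizontal axis, Sel1l CKO minus control) of each tested gene of the core class I genes and of 7 lists of the pathway, one point per gene, filled and named where the limma adjusted p was under 0.05. Filled points occur in 2 lists, the other heavy chains and the chaperones, with 5 genes each, all to the right of 0.

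The ER chaperones that fold heavy chains and load peptides had the highest median of the lists. Of 6 listed genes, 5 rose and none fell, against 4.27% of all genes for a rise, with a median log2 fold change of 0.96. Calreticulin (Calr), a lectin chaperone of the loading complex, went from 110.5, 110.2, 115 and 121 RPKM in control to 276, 248, 269.7 and 274 RPKM in Sel1l CKO libraries (1.22, adjusted p of 5.58e-06 by limma). Its partner Pdia3, the disulfide isomerase that is bound to tapasin, rose from 16.8 ± 0.719 to 38.2 ± 1.68 RPKM (1.18, adjusted p of 5.58e-06 by limma). Both are subunits of the complex of which tapasin is the centre, and the tapasin transcript did not rise with them.

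Canx, the membrane-bound lectin chaperone calnexin, rose from 14.2 ± 0.587 to 23.7 ± 0.668 RPKM (0.73, adjusted p of 8.54e-05 by limma). Hspa5, which encodes BiP, rose from 107 ± 20.9 to 376 ± 49.5 RPKM (1.82, adjusted p of 0.000105 by limma). Uggt1, the folding sensor that returns glycoproteins to calnexin and calreticulin, rose from 1.41 ± 0.0918 to 1.98 ± 0.179 RPKM (0.46, adjusted p of 0.0131 by limma). The genotypes did not overlap for these 5 genes, and each passed in all 8 fits that left out 1 library, though Uggt1 passed in only 18 of 21 alternatives in all. These chaperones are also general targets of the unfolded protein response and serve many other ER proteins. Ganab, the α subunit of glucosidase II, measured 15.8 ± 0.639 and 17.3 ± 1.52 RPKM (0.12, adjusted p of 0.393 by limma).

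On the cytosolic side no gene passed. The list of immunoproteasome and proteasome activator genes had 6 tested members with a median of 0.09, and the gene furthest from 0 was Psmb9 at 0.21 (adjusted p of 0.192 by limma). The list of cytosolic peptidases had 6 tested members with a median of 0.08, led by Blmh, bleomycin hydrolase, at 0.17 (adjusted p of 0.393 by limma).

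The same held for genes that act upstream of class I transcription. None of 14 tested regulators passed, with a median of -0.04, and Rfx5, the DNA-binding subunit of the factor at the X box, lay furthest from 0 at -0.27 (adjusted p of 0.329 by limma). Rfx5 was at 5.46 and 5.59 RPKM in Sel1l CKO replicates 1 and 2, below all other libraries, and at 8.40 and 8.04 RPKM in replicates 3 and 4. None of 7 tested interferon receptor and signalling genes passed, with a median of -0.19. Socs3, a feedback inhibitor of cytokine signalling, gave -1.04 (adjusted p of 0.224 by limma) with control libraries from 11.5 to 34.6 RPKM. None of 18 tested interferon-stimulated genes passed, with a median of -0.25. Below 0 were 16 of the 18, beside 3087 of all 6512 genes tested. Gbp6 lay furthest from 0 at -0.47 (adjusted p of 0.329 by limma), with -0.78 within replicates 1 and 2 and -0.15 within replicates 3 and 4. Most of the 18 likewise lay nearer 0 within replicates 3 and 4, though Isg15, Gbp3 and Ifi27l2a did not. At an unadjusted p under 0.05 in the same limma fit, 1 of the 6 immunoproteasome genes, 0 of the 6 peptidases, 2 of the 14 regulators, 3 of the 7 signalling genes and 6 of the 18 interferon-stimulated genes passed, against 20.8% of all genes.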

How the data were processed

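RNA of sorted DN3 thymocytes was sequenced by the authors (TruSeq stranded mRNA kit, 150 bp paired ends), and the submitters' processing notes name STAR 2.5.2b, HTSeq 2.7 and GRCm38. The deposited values are RPKM, 1 column per library, made by the authors per kilobase of a gene length with introns. That length matched the annotated span for 11778 of 15856 genes with a value. Whole reads were recovered from the RPKM steps with the spans of GENCODE M21, or with a length solved from the values, for 96.6% of genes with a value (tolerance 0.02 and 0.01 reads), and a library held 32900253 to 50401359 counted reads. Whether reads were counted by strand is not given in the sources used here.

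Libraries were grouped by the labelled genotype. RPKM are not counts, so log2(RPKM + 0.1) was tested for genes whose mean RPKM reached 1, with limma 3.58.1 (R 4.3.3, trend, genotype as the only term, two-sided) and adjusted by the Benjamini-Hochberg method over 6512 genes, with a threshold of 0.05. The test was run on simulated data first. Single genes were also tested by exact permutation over the 70 assignments. Exon lengths came from GENCODE M21, promoter windows from RefSeq (GRCm38.p6, searched for 2 short cores taken from general knowledge), and figures were drawn with matplotlib 3.10.9.

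The members and lists were chosen with earlier results of these data known. Named are all members, Sel1l, the genes of each list that passed (at most 6) with the furthest that did not, and the 5 genes most like the members. H2-Q7, Cd1d1, Ganab and overlapping genes were added after their values were seen. Alternatives were other pseudocounts, filters, scalings, array weights, voom on recovered reads, a fit without the trend, library-pair and replicate terms, and leaving out each library.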

Additional observations from a re-analysis of the deposited data

Results flagged for a closer look

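In a check of 40 groups of 4 libraries, where chance flags about 2, a single library stood apart from the other 3 in 2 groups. Tap2 in control replicate 2 was at 28.6 RPKM, with the other controls from 29.6 to 29.7 RPKM, a gap that is wide only beside how closely those 3 agree. H2-T22 in Sel1l CKO replicate 3 was at 17.9 RPKM, with the other Sel1l CKO libraries from 16.0 to 16.1 RPKM, and its call was lost without that library.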

How the results depend on the processing

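The alternatives that changed a call or a sign follow. Sel1l, the deleted gene, lost its call with rescaled sums, no filter, the replicate block, within replicates 3 and 4 and without any 1 of 6 libraries. A pseudocount of 1 brought Sel1l to -0.36 and Erap1 to -0.20. The count of core genes that passed was 1 with a term for the library pairs, voom, no trend or median-of-ratios scaling, 2 with array weights or within replicates 1 and 2, and 0 whichever library was left out. H2-K1 passed with array weights (0.44), H2-T23 within replicates 1 and 2 (-0.52), and Tapbp with the pair term (-0.56) and within replicates 1 and 2 (-0.86). Erap1 passed with array weights (-0.33), voom (-0.32), no trend (-0.30) and median-of-ratios scaling (-0.32). The sign reversed for H2-T23 within replicates 3 and 4 (0.072), Tap2 within replicates 1 and 2 (-0.0057), and Tapbpl within replicates 1 and 2 (0.055) and without control replicate 3 (0.0074, with a range from -0.084 to 0.0074 over the libraries left out). Of the other heavy chains, 3 passed with a mean RPKM of at least 5 (fewer genes tested), 1 with no filter (more genes tested), 3 within replicates 3 and 4, and 2 to 5 with 1 library left out. Over all genes, 525 passed with the pair term, 640 with array weights, 218 with a mean RPKM of at least 5, 585 within replicates 1 and 2, and 243 to 317 with 1 library left out. On exon length the mean log2 ratio of H2-K1 to B2m in control was -2.49 in place of -0.40. The causes of the other changes were not tested.

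The replicate numbers share only a label: same-numbered libraries correlated at 0.16, 0.10, 0.44 and 0.01 in their deviations from the genotype means, and only replicate 3 matched its own number best. With a replicate block 317 genes passed in place of 344, and the core genes that passed stayed at 0. With 4 libraries a genotype, a member whose printed interval spans 0 may differ by any value inside it, and genes under 1 RPKM were not tested.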

Other observations

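The genes outside the pathway whose levels were most like the mean of the 9 tested members, centred within genotype over 8 libraries, were Emc3 (Pearson r = 0.962), Ctsb (0.960), Rac2 (0.960), S100a11 (0.957) and Gpsm3 (0.957). Emc3 encodes a subunit of the ER membrane insertase, Ctsb the lysosomal protease cathepsin B and Rac2 a small GTPase of blood cells. Without centring they were Emc3 (0.961), S100a11 (0.958), Gpsm3 (0.947), Septin6 (0.935) and Saraf (0.926). None of the 7 passed the limma test between genotypes, and the lowest adjusted p was 0.0517, for Ctsb (means of 8.32 RPKM for control and 6.07 RPKM for Sel1l CKO). They were picked as the highest of all genes tested over few libraries, so the values describe these libraries.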
